A study of Mus musculus with 120 samples.

Results

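Hedgehog signalling genes were followed in dorsal root ganglia (DRG), where sensory neurons and their glia lie, and in plantar skin of mice treated with paclitaxel or vehicle. The set holds 9 genes, namely Dhh, Ptch1, Smo, Gas1, Hhip, Sufu, Gli1, Gli2 and Gli3. They were taken by gene symbol from the count table of each tissue, where they make up 9 of 52394 rows, and all 9 passed the filter on low counts in both tissues. The set was chosen by the measured values of Gli2, which was lower with paclitaxel in DRG. The DRG values of paclitaxel against vehicle are therefore given as a description, and calls on them are not read as support.

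The mice were males of the strain labelled C57B6/J, 6 weeks old at the start, and the labels name no engineered allele. One treatment group received paclitaxel, a drug that stabilises microtubules, by intraperitoneal injection at 4 mg/kg on days 0, 2, 4 and 6, and the other received the vehicle, Cremophor and ethanol diluted in saline, on the same days. Left lumbar DRG and left plantar skin were taken from 4 mice per treatment on each of days 4, 7, 11 and 23, which gives 16 paclitaxel and 16 vehicle libraries per tissue. Mice collected on day 4 had not reached the last injection. A library is the summed sequencing of 1 mouse, and mice were housed 4 to a cage, with the cage of each mouse not given in the sources used here, so that cage and group cannot be told apart.

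A DRG library held 22146536 to 52904112 counts and a skin library 24114230 to 63872693. One sequencing record of the DRG mouse DRG09 is labelled vehicle, day 23, whereas its other record is labelled paclitaxel, day 4, and the mouse is used here under the second label. The paper's sample list gives paclitaxel, day 4, for both. DRG09 and the day 11 vehicle mouse DRG34 stand apart in DRG, with 1.80% and 1.77% of counts in mitochondrial genes, the lowest of the 32 libraries (median 7.55%, highest 10.1%). DRG09 had the lowest level of all 32 DRG libraries for 7 of the 9 genes. The keratinocyte gene Krt10 exceeded 10 CPM (counts-per-million, scaled by TMM for library size and composition) in 11 of 32 DRG libraries, 6 of paclitaxel and 5 of vehicle mice. The tissue labels were borne out by defining markers, with 12 sensory neuron markers summing to 9544 to 17920 CPM in paclitaxel and 8499 to 18760 CPM in vehicle DRG, and 8 keratinocyte markers to 74050 to 171400 CPM in paclitaxel and 80370 to 160100 CPM in vehicle skin.

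Hedgehog ligands are secreted proteins that bind the receptor Patched1 (Ptch1). In the absence of ligand Patched1 holds back Smoothened (Smo), and when ligand is bound Smoothened acts at the primary cilium to release the GLI transcription factors from Suppressor of fused (Sufu). Gli2 is known mainly as the activator, Gli3 mainly as a repressor, and Gli1 is both an activator and a target whose mRNA is widely used as a readout of the pathway, as are Ptch1 and Hhip. Desert hedgehog (Dhh) is the ligand made by Schwann cells, and it directs the formation of the perineurium around peripheral nerves.

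The genes lie on 7 chromosomes of GRCm38. Gli2 lies at chr1:118834132-119053619 on the minus strand, Sufu at chr19:46396896-46488804 on the plus strand and Dhh at chr15:98891152-98898540 on the minus strand. Gli1 (chr10:127329882-127341974), Hhip (chr8:79965851-80058006), Gas1 (chr13:60174405-60177365) and Ptch1 (chr13:63508328-63573598) are on the minus strand, and Smo (chr6:29735503-29761365) and Gli3 (chr13:15463235-15730026) on the plus strand. The exons of Gli2, Ptch1, Smo and Sufu share no base with another annotated gene. Those of the other 5 do, most of all Dhh, where Gm49442 on the opposite strand covers 25.2% of the exon bases and Rhebl1 on the same strand 12.4%. Whether reads were counted by strand was not given in the sources used here, so how reads from the shared bases were counted is not known. The levels per kilobase below divide by all exon bases, shared bases included.

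The sequences before the transcription start of Gli2, Sufu and Dhh are shown because these are the 3 genes whose levels are described in most detail below. Each is the 250 bases upstream of the start on the gene's strand, from RefSeq on GRCm38.p6, at chr1:119053620-119053869 for Gli2, chr19:46396646-46396895 for Sufu and chr15:98898541-98898790 for Dhh. Capitals mark the GC box GGGCGG, the element bound by Sp1, or its reverse complement CCGCCC.
Gli2: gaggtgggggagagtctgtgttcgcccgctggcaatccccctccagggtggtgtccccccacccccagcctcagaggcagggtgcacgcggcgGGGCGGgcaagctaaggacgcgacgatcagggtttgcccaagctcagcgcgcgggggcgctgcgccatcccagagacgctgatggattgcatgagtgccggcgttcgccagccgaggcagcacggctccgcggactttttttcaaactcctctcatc
Sufu: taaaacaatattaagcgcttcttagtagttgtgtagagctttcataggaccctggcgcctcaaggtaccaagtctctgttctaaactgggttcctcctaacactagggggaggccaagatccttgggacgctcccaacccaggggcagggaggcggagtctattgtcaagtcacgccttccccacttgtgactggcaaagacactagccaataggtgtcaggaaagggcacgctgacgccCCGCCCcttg
Dhh: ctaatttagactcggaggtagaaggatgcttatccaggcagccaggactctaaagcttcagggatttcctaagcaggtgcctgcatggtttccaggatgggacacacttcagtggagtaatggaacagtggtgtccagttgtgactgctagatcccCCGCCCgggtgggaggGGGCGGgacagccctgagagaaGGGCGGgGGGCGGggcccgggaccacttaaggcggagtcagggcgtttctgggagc
Of the 9 genes, 8 were in the promoter table and 7 of these 8 held a GC box, against 32.7% of all 32851 promoters of the same length. Dhh held 4, whereas Gli2 and Sufu held 1 each. A GC box is made of G and C only, and the 8 windows held 54.0% (Sufu) to 78.4% (Ptch1) of these bases. The median of all promoters was 52.4%, and the part of base content in the GC box count was not tested. The GLI consensus GACCACCCA, searched on both strands with up to 1 mismatch, was in 0 of the 8, against 5.79% of all promoters, which says only that these letters are not in this window.

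The levels of the genes followed a different order in the 2 tissues, here given as CPM per kilobase of exon over all 32 libraries of a tissue. In DRG the ligand Dhh was highest (19.0 ± 2.83, SD), followed by the receptor Ptch1 (8.44 ± 1.82), Smo (7.13 ± 1.27), Gli1 (5.53 ± 1.88) and the co-receptor Gas1 (5.45 ± 1.37). Sufu (1.98 ± 0.27), Gli2 (0.77 ± 0.30), Hhip (0.28 ± 0.083) and Gli3 (0.25 ± 0.069) were lower. Dhh stood above Ptch1 in 32 of 32 libraries, while Gli1 and Gas1 kept their order in 17 of 32 and Hhip and Gli3 in 19 of 32, so those neighbours do not differ beyond their spread.

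In skin Gas1 was highest by far, at 69.0 ± 11.3 CPM per kilobase (SD, n = 32), followed by Smo (9.54 ± 0.91) and Sufu (3.96 ± 0.55). Gli1 (1.72 ± 0.49) and Gli2 (1.65 ± 0.33) kept their order in 17 of 32 libraries, and Ptch1 (0.99 ± 0.21) and Gli3 (0.90 ± 0.16) in 18 of 32. Dhh (0.57 ± 0.35) and Hhip (0.47 ± 0.18), which encodes a decoy that binds ligand at the cell surface, were lowest and not separated beyond their spread. The counts per library behind these levels were small for some genes, with 16 to 261 counts of Dhh in skin and 27 to 126 of Hhip in DRG, so counting error adds to the spread between mice for these genes.

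**Figure D1:**
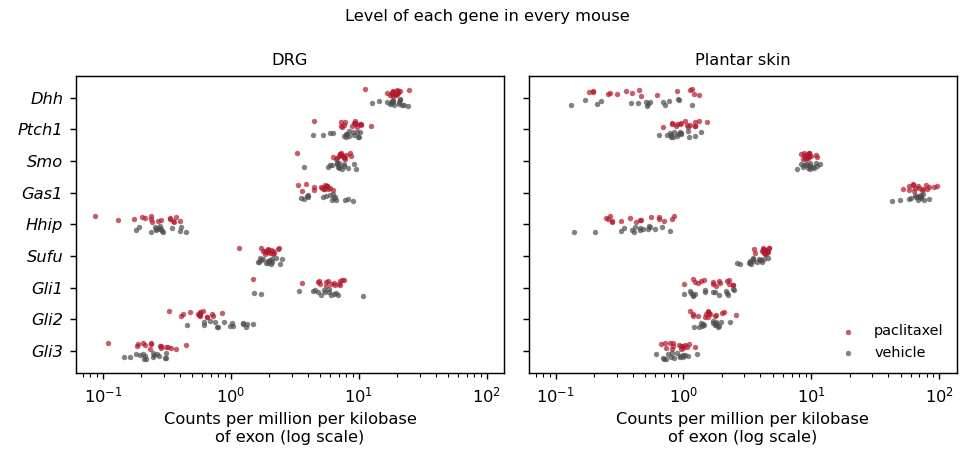
Level of each Hedgehog gene in every mouse, as CPM per kilobase of exon on a log axis, in DRG (left) and plantar skin (right), with paclitaxel mice in red above vehicle mice in grey. Dhh averages 19.0 in DRG and 0.57 in skin, and Gas1 5.45 in DRG and 69.0 in skin.

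Gli2, the main activator among the GLI factors, was the gene on which the set was chosen, and it was lower with paclitaxel in DRG on each of the 4 days. On day 4 its level was 2.26, 4.15, 3.29 and 3.97 CPM in the paclitaxel mice, against 4.76, 5.15, 6.14 and 4.29 CPM in the vehicle mice. On day 7 it was 5.86, 3.98, 3.79 and 2.93 CPM in paclitaxel mice, against 6.98, 8.51, 8.63 and 10.2 CPM in vehicle mice. On both days every paclitaxel mouse was below every vehicle mouse. On day 11 the levels were 4.92, 3.94, 3.86 and 2.81 CPM with paclitaxel, against 9.29, 3.15, 4.23 and 6.74 CPM with vehicle. On day 23 they were 4.998, 3.95, 4.51 and 4.44 CPM with paclitaxel, against 7.19, 9.06, 5.46 and 5.42 CPM with vehicle. The groups overlapped on day 11, where vehicle mice DRG34 and DRG35 were low, and not on day 23. How many of all genes did not overlap on a day was not counted. Absence of overlap is therefore a description, here and for the genes below.

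Over the 4 days Gli2 averaged 3.98 ± 0.89 CPM in paclitaxel mice and 6.57 ± 2.10 CPM in vehicle mice (SD, n = 16 each), and 16 of 16 paclitaxel mice were below the median of the vehicle mice (6.44 CPM). The log2 fold change from the model fitted to all genes was −0.70 (SE 0.13, 95% interval −0.97 to −0.44). By day it was −0.57 (SE 0.26) on day 4, −1.06 (SE 0.26) on day 7, −0.59 (SE 0.26) on day 11 and −0.60 (SE 0.26) on day 23. In bulk tissue, fewer cells that express a gene and less RNA per cell cannot be told apart.

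**Figure D2:**
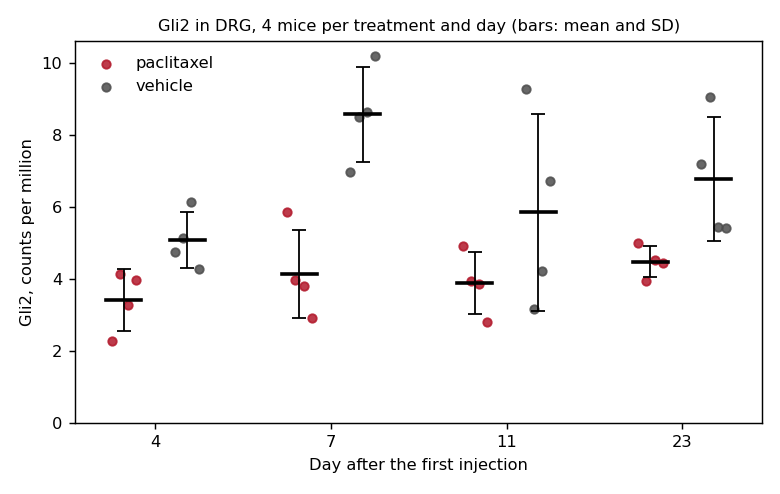
Gli2 in DRG in CPM by day, with 1 point per mouse, paclitaxel (red) left of vehicle (grey), and bars for the mean and SD of 4 mice. Paclitaxel mice lie between 2.26 and 5.86 and vehicle mice between 3.15 and 10.2, and the groups overlap on day 11 but not on days 4, 7 and 23.

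In DRG 1 of the 9 genes (Gli2) had an edgeR adjusted p under 0.05 over the 4 days, beside 0.139% of the 18709 genes tested, and 0 of 9 had one on any single day. By day 0% of all genes had one on day 4, 0.0107% on day 7, 0% on day 11 and 0.0214% on day 23. These are the contrasts that chose the set, so nothing is read from the counts. The 9 genes had a median log2 fold change of −0.01 over the 4 days, against −0.01 for all genes tested.

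Marker levels in DRG overlapped between treatments over the 4 days together, but not on every day. The 10 Schwann cell markers, each above 0 in every DRG library, summed to 7467 to 20370 CPM with paclitaxel and 8888 to 22560 CPM with vehicle, and the 10 fibroblast markers to 1186 to 2580 CPM with paclitaxel and 1459 to 3165 CPM with vehicle. The fibroblast ranges were apart on day 4, at 1186 to 2209 CPM with paclitaxel and 2255 to 2578 CPM with vehicle, and on day 7 in the other direction, at 2254 to 2532 CPM with paclitaxel and 1795 to 2144 CPM with vehicle. On day 23 the Schwann cell ranges barely met, at 13600 to 16440 CPM with paclitaxel and 16390 to 18800 CPM with vehicle. The 3 satellite glia markers, each above 0 in every DRG library, were apart on day 23, at 318.9 to 366.6 CPM with paclitaxel and 389.1 to 606.4 CPM with vehicle, and their part in the Gli2 values was not tested. The 16 skeletal muscle markers, of which 7 were at 0 in a library, summed to 49.87 to 9124 CPM with paclitaxel and 53.67 to 2084 CPM with vehicle. Their median log2 fold change was 1.06 over the 4 days, and −0.05, 3.59, 3.16 and −2.45 on days 4, 7, 11 and 23. The part of the muscle markers in the Gli2 values was not tested. With the mean of a list in the model the log2 fold change of Gli2 was −0.70 (Schwann cell markers) and −0.65 (fibroblast markers). Without DRG09 and DRG34 it was −0.72. Single days depended more on such choices, since day 4 gave −0.41 without DRG09, −0.33 with the fibroblast list and −0.46 with the Schwann cell list in the model, day 23 gave −0.41 and −0.46 with the same lists, and day 11 gave −0.27 without vehicle mouse DRG33. Among the libraries up to 10 CPM of Krt10, Gli2 averaged 3.97 ± 1.03 CPM in 10 paclitaxel mice and 6.77 ± 2.20 CPM in 11 vehicle mice (SD), and among those above 10 CPM of Krt10 it averaged 3.99 ± 0.69 CPM in 6 paclitaxel mice and 6.14 ± 2.02 CPM in 5 vehicle mice.

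Averaged over the 4 days, the log2 fold changes of the other GLI factors in DRG were smaller than that of Gli2 and positive. Gli1, the target gene used as a readout of the pathway, averaged 28.8 ± 7.97 CPM in paclitaxel mice and 26.5 ± 10.8 CPM in vehicle mice (SD, n = 16 each), a log2 fold change of 0.15 (95% interval −0.23 to 0.53). The lowest levels were in 3 libraries, DRG09 of paclitaxel (7.40 CPM) and DRG34 and DRG35 of vehicle (7.63 and 8.58 CPM), and the next lowest was 17.2 CPM. Without DRG09 and DRG34 its log2 fold change was 0.16, while on day 4, the day of DRG09, it was 0.41 without both and 0.09 with both. Gli3, mainly a repressor, averaged 2.55 ± 0.79 CPM in paclitaxel mice and 2.25 ± 0.49 CPM in vehicle mice, a log2 fold change of 0.17 (95% interval −0.11 to 0.46).

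The ligand and the receptors had small log2 fold changes over the 4 days in DRG. Dhh averaged 83.2 ± 12.1 CPM in paclitaxel mice and 84.3 ± 13.2 CPM in vehicle mice (SD, n = 16 each), a log2 fold change of −0.01 (95% interval −0.17 to 0.14). Ptch1 averaged 126 ± 26.1 CPM in paclitaxel mice and 114 ± 25.0 CPM in vehicle mice, a log2 fold change of 0.14 (95% interval −0.06 to 0.34). By day the log2 fold change of Ptch1 was −0.37 on day 4, 0.44 on day 7, 0.43 on day 11 and 0.08 on day 23, and on day 7 its levels did not overlap, at 133.9, 130.3, 148.2 and 135.1 CPM with paclitaxel against 88.8, 85.2, 116 and 114 CPM with vehicle. Smo, the transducer, also did not overlap on day 7, at 40.4, 41.2, 44.8 and 42.1 CPM with paclitaxel against 38.1, 33.4, 35.1 and 39.3 CPM with vehicle, and averaged 40.4 ± 6.81 CPM in paclitaxel mice and 39.7 ± 7.63 CPM in vehicle mice over the days. The log2 fold change of Smo on day 7 was 0.21 (SE 0.19). Since the share of all genes without overlap was not counted, nothing is read from the day 7 separation of Ptch1 and Smo.

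Gas1, a cell surface protein that helps ligand bind Patched1, averaged 15.0 ± 2.53 CPM in paclitaxel mice and 17.3 ± 4.97 CPM in vehicle mice in DRG (SD, n = 16 each). Its log2 fold change was −0.19 (95% interval −0.41 to 0.04), with 15 of 16 paclitaxel mice below the vehicle median of 18.0 CPM and the lowest value on day 23, at −0.56 (SE 0.22). Hhip and Sufu had log2 fold changes of −0.15 (95% interval −0.48 to 0.19) and −0.02 (95% interval −0.17 to 0.14).

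Changes over the days within a treatment, which the choice of the set did not use, were not called in DRG. Of the 9 genes, 0 passed edgeR's test across days in paclitaxel mice, where 0% of all genes passed, with 0 of 9 at an unadjusted p under 0.05. In vehicle mice 0 of 9 passed, again with 0% of all genes, and 2 of 9 (Gli2 and Ptch1) had an unadjusted p under 0.05. Of all 18709 genes 835 had such a p in paclitaxel mice and 2127 in vehicle mice. DESeq2 and limma also called 0 of 9 in both tests. The difference of effect between days shares the contrast that chose the set and is not read for the 9 genes, and 0% of all genes passed it.

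In skin Sufu, the protein that binds and holds back the GLI factors, was higher with paclitaxel. On day 4 its level was 31.9, 36.0, 35.9 and 27.5 CPM in paclitaxel mice, against 35.6, 26.8, 33.0 and 26.8 CPM in vehicle mice. On day 7 it was 33.0, 33.2, 32.2 and 34.3 CPM with paclitaxel, against 30.2, 30.6, 31.1 and 26.9 CPM with vehicle. The groups overlapped on day 4 and did not on day 7. On day 11 the levels were 31.7, 34.7, 34.4 and 35.3 CPM with paclitaxel, against 25.5, 31.8, 25.6 and 28.8 CPM with vehicle. On day 23 they were 33.1, 27.95, 33.8 and 33.3 CPM with paclitaxel, against 20.3, 25.2, 21.5 and 25.9 CPM with vehicle. A single vehicle mouse reached the lowest paclitaxel mouse on day 11, and on day 23 the groups did not overlap.

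Over the 4 days Sufu averaged 33.0 ± 2.44 CPM in paclitaxel mice and 27.8 ± 4.07 CPM in vehicle mice in skin (SD, n = 16 each), and 16 of 16 paclitaxel mice were above the median of the vehicle mice (26.9 CPM). The log2 fold change was 0.25 (SE 0.052, 95% interval 0.15 to 0.36, edgeR adjusted p = 0.0043). On day 23 it was 0.46 (SE 0.10, 95% interval 0.25 to 0.68, edgeR adjusted p = 0.0118), and on days 4, 7 and 11 it was 0.10, 0.16 and 0.28, which did not pass. Sufu was the only one of the 9 genes to pass, where 5.38% of 18578 genes passed over the 4 days and 4.82% on day 23. The day means were 32.8, 33.2, 34.0 and 32.02 CPM with paclitaxel on days 4, 7, 11 and 23, against 30.5, 29.7, 27.9 and 23.2 CPM with vehicle, so that vehicle means were lower on each later day. The change across days in vehicle mice did not pass (edgeR adjusted p = 0.107), nor did the difference of effect between days (adjusted p = 0.522).

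**Figure D3:**
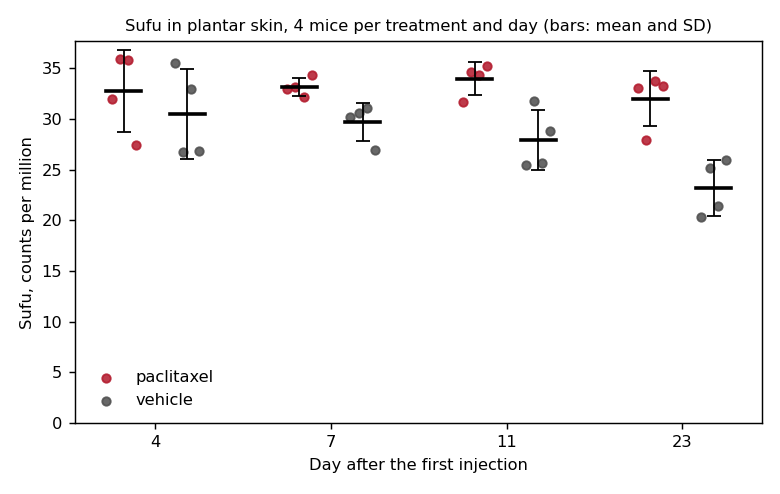
Sufu in plantar skin in CPM by day, with 1 point per mouse, paclitaxel (red) left of vehicle (grey), and bars for the mean and SD of 4 mice. On day 23 paclitaxel mice lie between 27.95 and 33.8 and vehicle mice between 20.3 and 25.9.

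Marker levels of 3 cell types were apart or nearly so between the skin groups on day 23. The 10 fibroblast markers, each above 0 in every skin library, summed to 5547 to 8091 CPM with paclitaxel and 1810 to 3515 CPM with vehicle. The 10 macrophage markers, of which 1 was at 0 in a library, summed to 236.5 to 282.6 CPM with paclitaxel and 90.32 to 191.8 CPM with vehicle. The 4 perineurial markers, each above 0 in every skin library, summed to 562.4 to 677.5 CPM with paclitaxel and 677.4 to 893.9 CPM with vehicle. The part of these 3 lists in the Sufu result was not tested. The ranges of muscle and keratinocyte markers overlapped. The medians lay far apart for the muscle markers, at 28480 CPM with paclitaxel and 2850 CPM with vehicle. For the keratinocyte markers they were 90720 CPM with paclitaxel and 127500 CPM with vehicle. The 16 skeletal muscle markers, of which 1 was at 0 in a library, summed to 19260 to 36420 CPM with paclitaxel and 57.9 to 54980 CPM with vehicle. The 8 keratinocyte markers, each above 0 in every skin library, summed to 74050 to 115100 CPM with paclitaxel and 80370 to 135300 CPM with vehicle. With the keratinocyte list in the model the log2 fold change of Sufu was 0.41 on day 23, which no longer passed (edgeR adjusted p = 0.0684), and 0.23 over the 4 days, which did (adjusted p = 0.0158). With the muscle list it was 0.46 on day 23 and 0.25 over the 4 days, and both passed (adjusted p = 0.0395 and 0.00842). The day 23 call also ended without vehicle mouse SKIN49 or SKIN51 (adjusted p = 0.0524 and 0.0597) and with the 8 libraries of that day alone (adjusted p = 0.102), and over its 8 alternatives the adjusted p was 0.00159 to 0.102, while the call over the 4 days held under all 7 alternatives and without any 1 mouse.

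None of the GLI factors passed the test in skin. Gli2 averaged 11.1 ± 2.60 CPM in paclitaxel mice and 11.5 ± 2.01 CPM in vehicle mice (SD, n = 16 each), a log2 fold change of −0.05 (95% interval −0.24 to 0.15, edgeR adjusted p = 0.858). Its levels ran over 7.76 to 17.8 CPM with paclitaxel and 8.32 to 16.0 CPM with vehicle and overlapped on every day. Gli1 averaged 8.80 ± 2.35 CPM in paclitaxel mice and 8.34 ± 2.55 CPM in vehicle mice, and Gli3 8.76 ± 1.48 CPM with paclitaxel and 8.44 ± 1.64 CPM with vehicle. The log2 fold changes of Gli1 and Gli3 were 0.08 (95% interval −0.19 to 0.34) and 0.05 (95% interval −0.13 to 0.24).

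Nor did the receptors and the decoy pass in skin. Ptch1 averaged 14.9 ± 3.11 CPM in paclitaxel mice and 13.2 ± 2.68 CPM in vehicle mice (SD, n = 16 each), a log2 fold change of 0.18 (95% interval −0.00056 to 0.35, edgeR adjusted p = 0.263). Smo averaged 52.9 ± 4.24 CPM in paclitaxel mice and 54.4 ± 5.87 CPM in vehicle mice, a log2 fold change of −0.04 (95% interval −0.14 to 0.06), the narrowest interval of the 9 genes. Gas1, the most abundant gene of the set in skin, averaged 211 ± 36.6 CPM in paclitaxel mice and 198 ± 29.8 CPM in vehicle mice, and Hhip 4.31 ± 1.86 CPM with paclitaxel and 4.15 ± 1.48 CPM with vehicle. By day 0 of 9 genes passed edgeR's test on day 4 (0.0108% of all genes), on day 7 (0.00538%) and on day 11 (0.269%), with 0, 1 and 2 of 9 at an unadjusted p under 0.05 on these days, and DESeq2 and limma also called 0. Of all 18578 genes 1521, 1143 and 1698 had such a p on days 4, 7 and 11. For the difference of effect between days 0 of 9 passed, with 0% of all genes, 0 of 9 at an unadjusted p under 0.05 and 0 by DESeq2 or limma.

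Dhh, the Schwann cell ligand, changed across days in the skin of paclitaxel mice. Its level was 5.15, 1.98, 4.91 and 3.92 CPM on day 4, then 0.86, 1.56, 0.81 and 0.87 CPM on day 7. It was 1.75, 1.18, 1.13 and 1.34 CPM on day 11 and 5.35, 5.81, 2.74 and 2.04 CPM on day 23. All paclitaxel mice of days 7 and 11 were below all those of days 4 and 23. In vehicle mice the level was 3.98, 0.75, 4.04 and 3.40 CPM on day 4, 0.99, 2.43, 3.03 and 2.25 CPM on day 7, 1.71, 1.96, 2.34 and 0.92 CPM on day 11 and 5.14, 3.15, 0.58 and 2.30 CPM on day 23, with every day overlapping every other.

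The test across days passed for Dhh in paclitaxel mice (edgeR adjusted p = 0.0113) and did not in vehicle mice (adjusted p = 0.672), and the difference of effect between days did not pass (adjusted p = 0.544). In paclitaxel mice 16.3% of all genes passed this test, so 1 of 9 is not a result about the set. In vehicle mice 0.877% of all genes and 0 of 9 passed with edgeR. There 2 of 9 had an unadjusted p under 0.05, against 3113 of all 18578 genes. DESeq2 called 1 of 9 (Sufu) and 941 of all genes, and limma called 0 of 9 and 86 of all genes. Paclitaxel against vehicle did not pass for Dhh on any day, with a log2 fold change of 0.38 (95% interval −0.61 to 1.38) on day 4, −1.08 (−2.12 to −0.04) on day 7, −0.38 (−1.40 to 0.65) on day 11 and 0.51 (−0.48 to 1.51) on day 23. The interval of day 7 leaves out 0, and its adjusted p was 0.798.

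Some marker lists moved with Dhh in skin and others against it. In paclitaxel mice the 10 Schwann cell markers summed to 809 to 1062 CPM on day 4, 358 to 405 CPM on day 7, 338 to 478 CPM on day 11 and 506 to 1290 CPM on day 23. The 16 skeletal muscle markers summed to 14770 to 29400 CPM on day 4, 608 to 3537 CPM on day 7, 83.3 to 3923 CPM on day 11 and 19260 to 36420 CPM on day 23. Both lists were low on the days on which Dhh was low. The 9 sensory neuron markers present, of which 5 were at 0 in a library, were low on these days too. They summed to 4.08 to 8.20 and 3.225 to 14.69 CPM on days 7 and 11. On days 4 and 23 they summed to 18.24 to 31.25 and 20.38 to 51.44 CPM. The 8 keratinocyte markers were high on days 7 and 11, at 140100 to 156100 and 117300 to 171400 CPM. On days 4 and 23 these summed to 77430 to 112000 and 74050 to 115100 CPM. On day 7 the Schwann cell markers summed to 358 to 405 CPM with paclitaxel and 456 to 874 CPM with vehicle, and did not overlap. The call for Dhh ended with the muscle list in the model (edgeR adjusted p = 0.201), with the keratinocyte list (adjusted p = 0.772) and with 1 surrogate variable (adjusted p = 0.063), and it held without any 1 mouse. Over all genes the calls fell from 3037 to 0 with the muscle list and 3 with the keratinocyte list, and to 1611 with 1 surrogate variable, so their loss was not particular to Dhh. The part of the Schwann cell list was not tested.

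**Figure D4:**
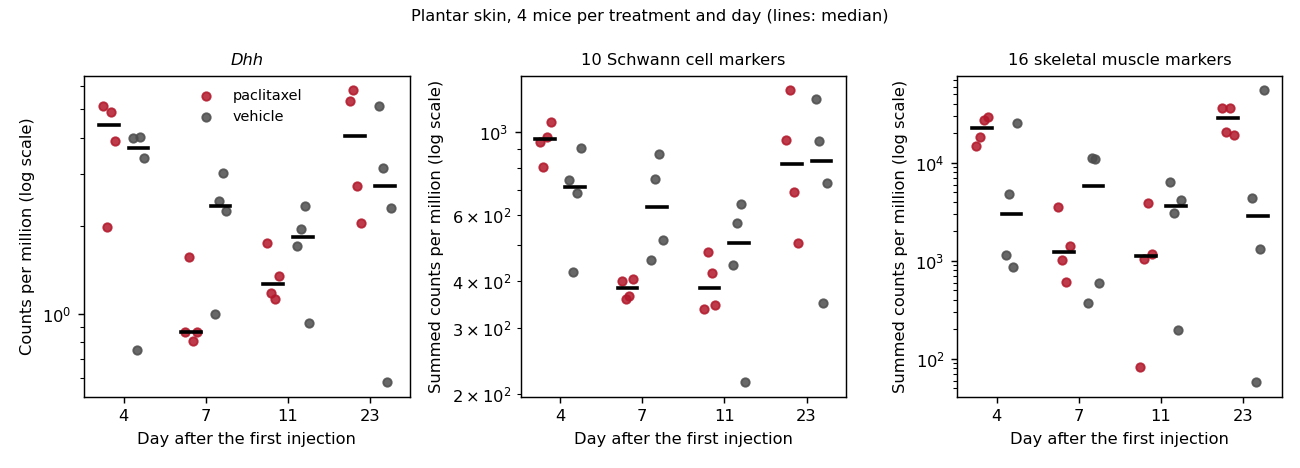
Plantar skin by day on log axes, with 1 point per mouse and a line at the median, paclitaxel (red) left of vehicle (grey), for Dhh in CPM (left), the summed CPM of 10 Schwann cell markers (middle) and of 16 skeletal muscle markers (right). In paclitaxel mice all 3 are lower on days 7 and 11 than on days 4 and 23, with Dhh at 0.81 to 1.75 on days 7 and 11 and 1.98 to 5.81 on days 4 and 23.

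Set side by side, the tissues differed most in Gli2. The log2 fold change over the 4 days in DRG minus that in skin was −0.66 for Gli2 (95% interval −0.97 to −0.34), −0.27 for Sufu (−0.45 to −0.09) and −0.27 for Gas1 (−0.54 to −0.01). The intervals of the other 6 genes included 0, with differences between −0.22 (Hhip) and 0.13 (Dhh). The DRG side was used in choosing the set, so these differences carry no test. Each interval takes the tissues as independent, whereas the 32 DRG and 32 skin libraries carry the same 32 numbers with the same treatment and day and may come from the same mice.

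**Figure D5:**
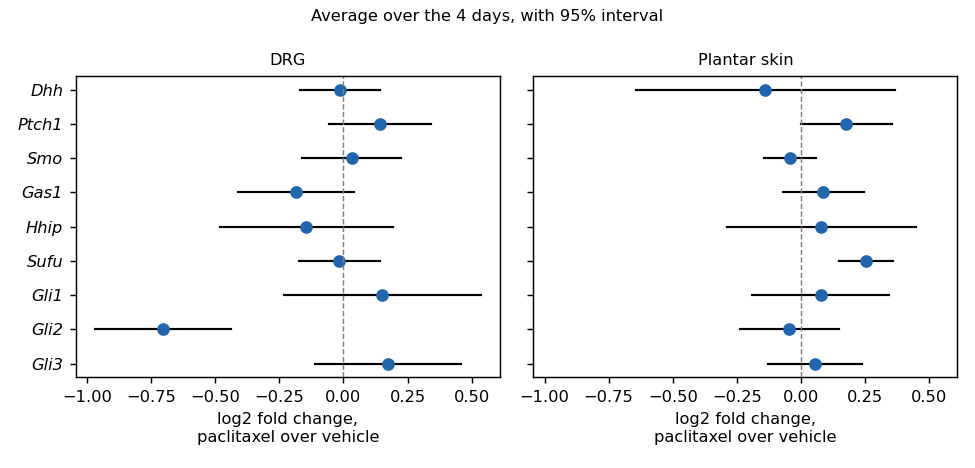
Log2 fold change of paclitaxel over vehicle averaged over the 4 days for each Hedgehog gene, with its 95% interval, in DRG (left) and plantar skin (right). In DRG the interval of Gli2, the gene on which the set was chosen, runs over −0.97 to −0.44, and in skin that of Sufu over 0.15 to 0.36.

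Other genes of the pathway were described by 5 lists of 40 genes in all, of which 39 were tested in DRG and 38 in skin. In DRG 0 of 39 passed edgeR's test over the 4 days, where 0.139% of all genes passed, or on any day, where 0% to 0.0214% did. At an unadjusted p under 0.05 by edgeR there was 1 of 39 over the 4 days. On days 4, 7, 11 and 23 there were 6, 3, 8 and 3. Of all 18709 genes 913 had such a p over the 4 days, and 1018, 800, 2502 and 913 had one on days 4, 7, 11 and 23. Limma called 0 in each and DESeq2 0 except for 1 on day 11 (Disp1, adjusted p = 0.0398), where DESeq2 called 63 of all 18709 genes. In skin 6 of 38 passed over the 4 days, 5 higher and 1 lower, where 5.38% of all genes passed, with a median log2 fold change of 0.04 against 0.00143 for all genes. On day 11, 1 of 38 passed (higher), where 0.269% of all genes passed, and on day 23, 3 of 38 passed, 2 higher and 1 lower, where 4.82% did. On days 4 and 7, 0 of 38 passed with edgeR, DESeq2 or limma, with 5 and 2 of 38 at an unadjusted p under 0.05 by edgeR. Of all 18578 genes 1521 and 1143 had such a p on these days. Limma called 0 on day 11 and 12 on day 23, and DESeq2 4 on day 11 and 3 on day 23. Of all 18578 genes limma called 71 on day 11 and 3948 on day 23. DESeq2 called 178 and 1617 of all genes on these days.

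Among ligands and the proteins that release them, 1 of 7 tested passed in skin over the 4 days, where 5.38% of all genes passed. Disp1, the transporter that releases lipid-modified ligand from the cell that makes it, had a mean of 15.4 CPM in paclitaxel mice and 11.0 CPM in vehicle mice. Its log2 fold change was 0.51 over the 4 days (edgeR adjusted p = 0.000609, SE 0.086) and 0.65 on day 23 (adjusted p = 0.0288, SE 0.17), and the day 23 call ended without SKIN49, SKIN51, SKIN57 or SKIN59 (adjusted p of up to 0.13). It also ended with no low-count filter (adjusted p = 0.0566), with the muscle list (0.0705), with the day alone (0.149), with 1 surrogate variable (0.161) and with the keratinocyte list in the model (log2 fold change 0.42, adjusted p = 0.258). Disp1 also changed across days in vehicle mice (edgeR adjusted p = 0.041), where 0.877% of all genes passed. That call held in 12 of 32 fits that each left out 1 mouse. It ended with 1 surrogate variable (adjusted p = 0.0538), with limma (0.0625) and with no low-count filter (0.0755). The list of ligands and release proteins had a median log2 fold change of 0.24. The ligand Shh was low in skin (0.16 CPM in paclitaxel and 0.18 CPM in vehicle mice) and had 16.9 CPM in paclitaxel and 16.4 CPM in vehicle DRG. Of the list, Disp2 (279.5 CPM with paclitaxel and 276 CPM with vehicle) and Disp1 (41.4 CPM with paclitaxel and 39.4 CPM with vehicle) were the most abundant in DRG, while in skin Disp1 was followed by Scube3 (4.07 CPM with paclitaxel and 4.98 CPM with vehicle). Ihh in DRG and Disp2 and Lrp2 in skin were too low to be tested. Receptors and co-receptors had 0 of 5 called in skin, with a median log2 fold change of 0.02, and 0 of 6 in DRG. The most abundant of these were the glypican Gpc3 and the ciliary receptor Gpr161 in DRG, at 145 and 45.2 CPM with paclitaxel against 142 and 45.0 CPM with vehicle. In skin they were the co-receptors Cdon and Boc, at 53.5 and 45.9 CPM with paclitaxel against 46.8 and 45.5 CPM with vehicle.

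The primary cilium, on which Hedgehog signal transduction depends, had 3 of 7 genes called in skin over the 4 days, 2 higher and 1 lower. Over the same days 5.38% of all genes were called in skin. Tulp3, an adaptor that carries receptors into the cilium, had a mean of 16.9 CPM in paclitaxel mice and 14.1 CPM in vehicle mice, with a log2 fold change of 0.28 (edgeR adjusted p = 0.00961, SE 0.064). Ift80, a part of the intraflagellar transport machinery, had a mean of 13.1 CPM in paclitaxel mice and 10.6 CPM in vehicle mice, with a log2 fold change of 0.32 (adjusted p = 0.0305, SE 0.090). Arl13b, a small GTPase of the cilium membrane, was lower, at 19.3 CPM with paclitaxel and 25.1 CPM with vehicle, with a log2 fold change of −0.39 (adjusted p = 0.0045, SE 0.081). The 3 genes of the cilium thus moved in both directions, and the list had a median log2 fold change of 0.10. The call of Ift80 over the 4 days ended without SKIN06, SKIN07, SKIN11, SKIN17, SKIN28, SKIN34, SKIN41 or SKIN51, with an adjusted p of at most 0.0599, and with no low-count filter (adjusted p = 0.0564). Tulp3 also passed on day 11 (log2 fold change 0.60, adjusted p = 0.0421) and Ift80 on day 23 (0.66, adjusted p = 0.0321). The call of Tulp3 on day 11 held in 20 of 32 fits that each left out 1 mouse, and ended without any 1 of the mice of that day or SKIN11, SKIN18, SKIN19 or SKIN25 (adjusted p of up to 0.153), with limma (0.0616), with no low-count filter (0.109) and with the day alone (0.1801). That of Ift80 on day 23 held in 26 of 32, and ended without SKIN49, SKIN51 or any paclitaxel mouse of that day (adjusted p of up to 0.128), with 1 surrogate variable (0.0541), with no low-count filter (0.0565), with the keratinocyte list in the model (0.0893) and with the day alone (0.179). The most abundant genes of the list were Kif3a and Ift172 in DRG, at 141 and 67.9 CPM with paclitaxel against 143 and 67.6 CPM with vehicle, and Ift172 (26.0 CPM with paclitaxel and 24.3 CPM with vehicle) and Arl13b in skin.

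In the signal transduction list, which holds kinases and degradation factors that act on Smoothened and the GLI proteins, 0 of 12 genes passed in skin over the 4 days, with a median log2 fold change of 0.04. Its most abundant genes were Gsk3b (344 CPM with paclitaxel and 339 CPM with vehicle) and Grk2 (316 CPM with paclitaxel and 325 CPM with vehicle) in DRG. In skin they were Csnk1a1 (492 CPM with paclitaxel and 505 CPM with vehicle) and Grk2 (199 CPM with paclitaxel and 221 CPM with vehicle). Grk2, a kinase that phosphorylates Smoothened, was lower on day 23, with a log2 fold change of −0.37 (edgeR adjusted p = 0.0242, SE 0.096), a call that ended without SKIN49, SKIN51, SKIN57 or SKIN59 (adjusted p of up to 0.0749). It also ended with no low-count filter (adjusted p = 0.0718), with the day alone (0.107), with 1 surrogate variable (0.125), with the muscle list (0.127) and with the keratinocyte list in the model (log2 fold change −0.19, adjusted p = 0.252). Of 7 GLI target genes, 2 passed over the 4 days in skin, both higher, where 5.38% of all genes passed. The GLI target list had a median log2 fold change of 0.0058. Ccnd2, a cyclin that drives cells into the cycle, had a mean of 143 CPM in paclitaxel mice and 118 CPM in vehicle mice (log2 fold change 0.27, adjusted p = 0.00926), and the growth factor Bmp4 25.6 CPM in paclitaxel mice and 20.3 CPM in vehicle mice (log2 fold change 0.35, adjusted p = 0.00995). In DRG the most abundant were Ccnd1 (97.0 CPM with paclitaxel and 92.7 CPM with vehicle) and Bcl2 (78.2 CPM with paclitaxel and 74.5 CPM with vehicle), and in skin Ccnd1 (235.5 CPM with paclitaxel and 234 CPM with vehicle) and Ccnd2. Gli1, Ptch1 and Hhip, which are GLI targets too, did not pass in skin.

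Genes whose pattern was most like that of Gli1 and Gli2 were named by Pearson's r of log2(CPM + 1) over the 32 libraries of a tissue, which share depth, treatment and day, and the r is a description. For Gli2 in DRG, among 13715 genes, they were Mertk, a receptor for the uptake of dying cells (r = 0.81), Hif3a, a hypoxia-inducible factor subunit (0.78), Zbtb16, a transcriptional repressor (0.78), Gpt2, an alanine aminotransferase (0.77), and Fkbp5, a co-chaperone of steroid receptors (0.76). By deviations from the group means, which take out treatment and day, none of these 5 remained among the 5 most like Gli2, and Klf3 (0.81), Bcl2l11 (0.79), Man2a1 (0.79), Tspan18 (0.79) and Foxd2 (0.78) came in their place. For Gli1 in DRG they were Pkd2 (0.96), Dock6 (0.95), Adcy6 (0.94), Cyp27a1 (0.94) and Stk38 (0.94), and the low values of DRG09, DRG34 and DRG35 are part of these. In skin those of Gli1 were Kank4 (0.80), Xaf1 (0.78), Eno2 (0.73), Adcy7 (0.73) and Podn (0.73), and those of Gli2 were E2f7 (0.66), Cramp1l (0.65), Slc1a4 (0.63), Arhgef3 (0.62) and Spred2 (0.62).

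Between mice of a group, 5 of 36 pairs of the genes in DRG and 3 of 36 in skin correlated by both Pearson's r and Spearman's rho. Over deviations from the group means of log2(CPM + 1), 36 of 36 pairs had a positive r in DRG and 26 of 36 in skin, but without DRG09 and DRG34, 4 of the 36 in DRG were negative. The p-values are from 100000 permutations within groups, two-sided, with Benjamini-Hochberg adjustment over the 36 pairs of a tissue. In DRG Ptch1 went with its partner Smo (r = 0.75, permutation p = 0.0008, adjusted p = 0.0096, rho = 0.73, p = 0.0002, adjusted p = 0.00486) and with Gli2 (r = 0.70, permutation p = 0.00059, adjusted p = 0.0096, rho = 0.71, p = 0.00027, adjusted p = 0.00486). Without the 2 libraries farthest from the median of the first gene r was 0.73 for Ptch1 with Smo and 0.63 for Gli2 with Ptch1, and without DRG09 and DRG34 it was 0.68 and 0.63. Gli1 went with Dhh (r = 0.78, permutation p = 0.00021, adjusted p = 0.00756, rho = 0.65, p = 0.00138, adjusted p = 0.0166), and r was 0.48 without DRG09 and DRG34, so the size of this relation rests in part on those 2 libraries. By the same deviations Dhh ranked 939 of 13714 genes in likeness to Gli1 and Ptch1 ranked 1765. The other pairs were Gli1 with Hhip (r = 0.55, and 0.45 without DRG09 and DRG34) and Hhip with Gas1 (r = 0.46, and 0.51 without them). Hhip ranked 2932 in likeness to Gli1, and Gas1 ranked 1342 in likeness to Hhip. Smo ranked 304 in likeness to Ptch1, and Ptch1 ranked 769 in likeness to Smo and 102 in likeness to Gli2. Many genes outside the set were thus as close, and the share of all gene pairs that would pass was not counted. Smo with Dhh, which did not pass, had r = 0.72 with DRG09 and DRG34 and 0.0096 without them.

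In skin 3 pairs passed by both measures. Smo went with Hhip (r = 0.64, permutation p = 0.00021, adjusted p = 0.00756, rho = 0.68, p = 0.0002, adjusted p = 0.0072), Gli2 with Gli3 (r = 0.59, permutation p = 0.00045, adjusted p = 0.0081, rho = 0.62, p = 0.00084, adjusted p = 0.0151), and Gli1 with Dhh (r = 0.62, permutation p = 0.00076, adjusted p = 0.00912, rho = 0.57, p = 0.00153, adjusted p = 0.0184). Without the 2 libraries farthest from the median of the first gene r was 0.59 for Smo with Hhip, 0.66 for Gli2 with Gli3 and 0.59 for Gli1 with Dhh. In likeness to Smo, Hhip ranked 209 of 13332 genes by deviations from the group means. Gli3 ranked 46 in likeness to Gli2, and Dhh ranked 119 in likeness to Gli1. Gli1 with Dhh was the pair that passed in both tissues. The share of depth, tissue makeup and RNA quality in these relations was not tested.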

How the data were processed

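RNA of DRG and plantar skin was sequenced, and reads were trimmed by the authors (Trimmomatic 0.38), then aligned to GRCm38 and counted per gene by STAR on Ensembl annotation, with the runs of a mouse combined. The deposited raw tables hold counts of reads, and the deposited normalised tables hold a signal, the count scaled by a DESeq2 size factor for each mouse. The methods describe depletion of ribosomal RNA, whereas the labels describe oligo-dT, and with either the counting strand was not given in the sources used here. Each raw table also holds 28 empty columns of no sample, which were not used. The 118 rows without a gene name (0.0132% of counts in DRG, 0.0286% in skin) were left out. Of 120 sequencing records, 1 was left unassigned because its label conflicts with that of the same mouse. The deposited counts give 1 column for that mouse, DRG09, with its runs combined, so this record could not be left out of them. No pair of libraries of a group, of 96 compared, was identical.

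For each tissue 1 model with 8 groups was fitted in edgeR 4.0.16 (R 4.3.3), using TMM, edgeR's filter on low counts, quasi-likelihood tests and Benjamini-Hochberg adjustment over 18709 genes in DRG and 18578 in skin, at a threshold of 0.05. The common dispersion had a square root of 0.223 (DRG) and 0.325 (skin). CPM are TMM-normalised, levels in the text are CPM unless said otherwise, and exon lengths and positions are from GENCODE M21. Alternatives were DESeq2 size factors, DESeq2 1.42.0, limma 3.58.1 (voom with quality weights), no low-count filter, 1 surrogate variable (sva 3.50.0), fits to a single day's libraries, means of marker lists as a covariate, leaving out libraries, and Krt10 above 10 CPM as a covariate, the last chosen after seeing the data. The genes and lists were chosen with earlier results of these data known. The text names all 9 genes, genes of the 5 pathway lists that passed in a paclitaxel contrast, the 2 most abundant of each list, and the 5 genes most like Gli1 and Gli2. Python 3.11.15, numpy 2.4.6, scipy 1.17.1, pandas 2.3.3 and matplotlib 3.10.9 were used for tables and figures.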

Additional observations from a re-analysis of the deposited data

Results flagged for a closer look

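Among 144 groups of 4 mice (9 genes, 2 tissues, 2 treatments, 4 days), 4 held a mouse far from the other 3 by Dixon's test, and chance flags about 1 in 20 groups, so this number is below what chance gives. In skin, Dhh was high in paclitaxel mouse SKIN26 on day 7, at 1.56 CPM against 0.81 to 0.87 CPM in the other 3 mice. Sufu was low in paclitaxel mouse SKIN58 on day 23, at 27.95 CPM against 33.1 to 33.8 CPM, and this mouse was still above all vehicle mice of that day. Gas1 was low in vehicle mouse SKIN07 on day 4, at 191.1 CPM against 214.8 to 219.3 CPM. In DRG, Gas1 was high in paclitaxel mouse DRG42 on day 11, at 17.7 CPM against 15.5 to 15.8 CPM.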

How the results depend on the processing

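The number of the 9 genes called was the same as in the main analysis under most alternatives. In DRG, limma called 1 (Gli2) on day 7 and 0 were called over the 4 days without the 11 libraries above 10 CPM of Krt10, which leaves 21 libraries and 2 genes called of all tested. The log2 fold change of Gli2 over the 4 days was −0.72 to −0.65 over 10 alternatives and −0.76 to −0.63 leaving out each mouse (a description, since this contrast chose the set). In skin on day 23, 0 were called with the 8 libraries of the day alone and with the keratinocyte list as a covariate, and 0 to 1 leaving out each mouse. Across days in skin, DESeq2 called 1 in vehicle mice, limma called 2 in paclitaxel mice (Dhh and Ptch1), 0 were called there with 1 surrogate variable, with the skeletal muscle list or with the keratinocyte list, and 1 to 2 leaving out each mouse. The cause of these changes was not tested. Over all genes, 26 were called over the 4 days in DRG, against 2 (without the libraries above 10 CPM of Krt10) to 80 (Schwann cell list as a covariate) under the alternatives. In skin 1000 were called over the 4 days, against 553 (no low-count filter) to 2334 (limma), 895 on day 23, against 107 (the day alone) to 3948 (limma), and 3037 across days in paclitaxel mice, against 0 (skeletal muscle list) to 6200 (limma). Across days in vehicle mice 163 were called in skin, against 62 (no low-count filter) to 941 (DESeq2). Of the 20 genes most like Gli1 and Gli2, 4 were the same by deviations from group means. On the deposited normalised counts 11 of 18 gene and tissue pairs had the higher mean with paclitaxel, as on CPM. With Krt10 above 10 CPM as a covariate Gli2 had −0.70 over the 4 days. No paired analysis was possible because paclitaxel and vehicle mice share no replicate number. Depth limits the genes of few counts, among them Dhh in skin (16 to 261) and Hhip in DRG (27 to 126).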
